A study of Rattus norvegicus with 6 samples.

Results

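Mitochondria make ATP by passing electrons through complexes I to IV of the inner membrane and letting protons flow back through complex V, the ATP synthase. Complexes I and II feed electrons from NADH and succinate into ubiquinone, complex III hands them to the small carrier cytochrome c, and complex IV, cytochrome c oxidase, gives them to oxygen. Most subunits are encoded in the nucleus and imported, and a smaller set is encoded in mitochondrial DNA, so the complexes need both genomes and a set of assembly factors. The tissue studied was the corneal epithelium, the layered outer covering of the eye, in diabetic and normal rats.

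The genes described here are the nuclear genes whose symbols start with Nduf, Uqcr, Atp5 or Cox4 to Cox8, together with *Sdha*, *Sdhb*, *Sdhc*, *Sdhd*, *Cycs* and *Cyc1*. A row had to be typed as protein coding and reach a mean FPKM of at least 0.5 over all libraries, and each symbol counted once, at its row of highest mean FPKM. FPKM are fragment counts scaled by locus length and library size. Of 61453 loci in the series, 158 rows met the name rule, 93 of them were typed protein coding, and these carried 90 symbols. After the floor 83 genes remained. They comprised 33 genes of complex I, 4 of complex II, 9 of complex III, 12 of complex IV, 14 of complex V and *Cycs*, the gene of cytochrome c. The other 10 met the rule by name and are not structural subunits: 8 complex I assembly factors (*Ndufaf1* to *Ndufaf8*), *Cox7a2l*, which helps join complexes into supercomplexes, and *Atp5if1*, the inhibitor of ATP synthase.

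The samples were scraped corneal epithelium of male Brown Norway rats. Diabetes was induced by a single intraperitoneal dose of 50 mg/kg streptozotocin (STZ), a toxin of the insulin-producing cells, and the normal control rats (NOR) were given citrate buffer. Tissue was taken 16 weeks after the injection, and each group had 3 libraries. The study's methods name as many rats as libraries and a pair of corneas for each, but the labels do not tie a library to a rat, and p-values measure the spread between these libraries only. The libraries held 62288901 to 87040253 counts in all, and a locus with 0 counts may still hold up to 0.0345 to 0.0482 CPM (counts scaled by the library total), from counting error alone. The 5 corneal epithelium markers found with a row of their own summed to between 13245 and 15304 FPKM in every library, most of it *Aldh3a1* and *Krt12*. Among them *Upk1b*, a uroplakin of the surface cells, was higher in STZ without overlap (4.65% of all loci). It read 248, 272 and 244 FPKM in NOR and 346, 303 and 339 in STZ (limma, unadjusted p = 0.021, adjusted p = 0.953). The groups overlapped for the other markers. Their limma log2 fold changes, STZ minus NOR, were 0.0012 for *Krt12*, -0.13 for *Pax6*, -0.34 for *Aldh3a1* and -0.083 for *Tkt*. The value of *Aldh3a1*, taken after quantile normalization, had a standard error of 0.45. Its mean FPKM went the other way, at 9304 in NOR and 9631 in STZ. The part of these markers in the results below was not tested. Markers of other tissues differed between libraries. The 8 lens markers summed to 1232 FPKM in STZ replicate 2 and 3.28 in STZ replicate 3, against 106 to 352 in the other 4 libraries. The 2 conjunctival keratins with a row, *Krt4* and *Krt13*, summed to 497 FPKM in STZ replicate 3 and to 788 to 1388 elsewhere. The 7 keratocyte markers found, from the stroma, summed to 845 to 1101 FPKM in NOR and to 759 to 860 in STZ libraries. Sums were 4.13 to 10.5 FPKM for 6 monocyte and macrophage markers, 5.71 to 7.84 for 5 vessel markers and 93.4 to 291 for 8 immediate early genes, the last lowest in STZ replicates 2 and 3.

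Together the 83 genes held 0.241% to 0.299% of a library's counts, and their summed level was 1965 to 2241 FPKM in NOR and 1841 to 2229 FPKM in STZ libraries. The ranges overlap. STZ replicate 3 had the lowest sum and NOR replicate 1 the highest. In these tables the 13 subunits encoded in mitochondrial DNA are listed at 0 counts in all 6 libraries, so the nuclear genes could not be set against their mitochondrial partners. In bulk tissue, fewer cells of a type and less RNA per cell cannot be told apart.

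No gene of the set differed between diabetic and normal corneas by the test used for the whole table. limma was run on quantile-normalized log2(FPKM + 1), and a call needed a fold change over 1.2 together with a p under 0.05 after Benjamini-Hochberg adjustment. It called 0 of the 83 genes. Over the whole table it called 11 of the 42551 loci tested, or 0.0259%. The smallest adjusted p of the set was 0.953. edgeR's quasi-likelihood test on the counts also called 0 of 83 (0.0141% of all loci), and so did DESeq2 (0.233% of all loci), whose smallest adjusted p was 0.218, for *Ndufaf6*. At an unadjusted limma p under 0.05, no gene was higher in STZ (2.44% of all loci) and 2 were lower (2.35% of all loci), *Ndufaf6* and *Ndufaf1*. The groups did not overlap in 0 genes that were higher in STZ (4.65% of all loci) and in 4 that were lower (4.87% of all loci), namely *Ndufaf6*, *Ndufaf1*, *Ndufaf3* and *Cox6c*. With 83 genes, 4 is close to the background share.

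The differences were small for most genes. They are given as log2 fold changes, STZ minus NOR, of log2(FPKM + 1), a scale that understates the change of genes with low values. The median log2 fold change over the 83 genes was -0.049, against -0.0049 over all loci tested, and 59 of 83 were negative (71.1%, against 51.0% of all loci). The 95% interval of the difference, as a fold of FPKM + 1, stayed within 1.5-fold in either direction for 70 of the 83 genes and within 2-fold for 78. For those genes a larger change of the group mean on that scale lies outside the interval. For genes with low values, the same bound allows a larger change of FPKM itself. The spread over all libraries, NOR and STZ together, was also small. The median SD was 0.136 on the log2 scale, against 0.261 over all loci and 0.159 over the protein-coding loci.

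**Figure D1:**
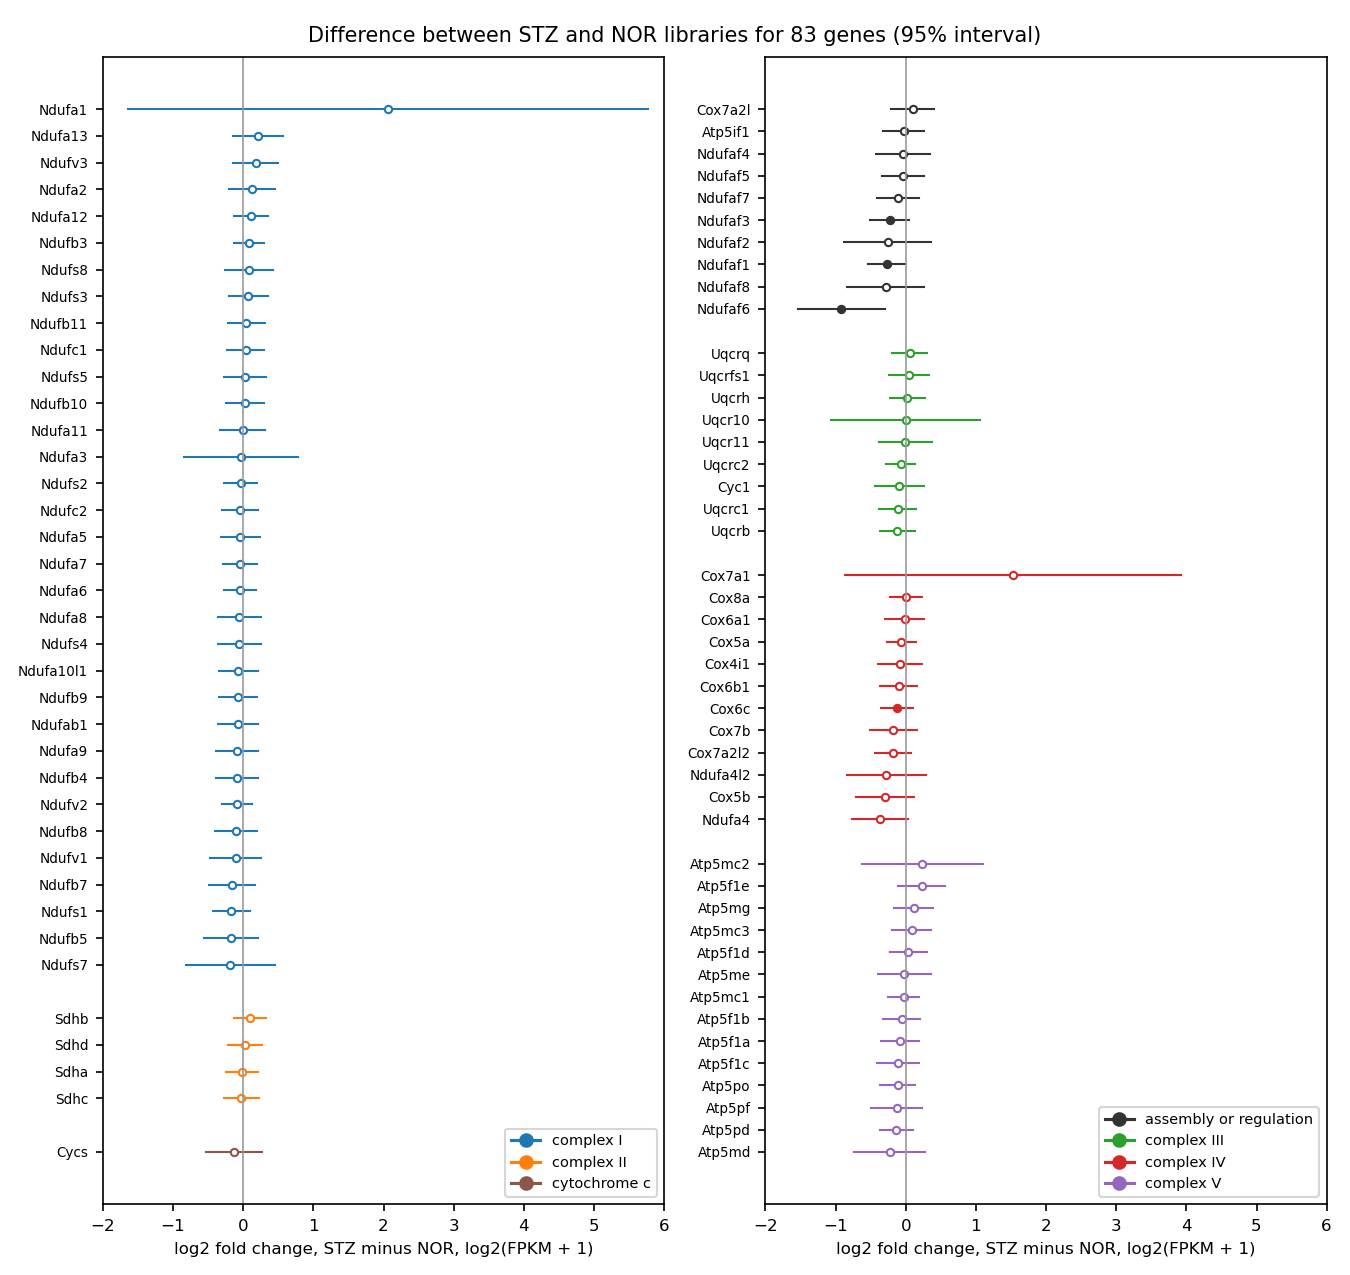
Difference between STZ and NOR for each of the 83 genes, as log2 fold change on the log2(FPKM + 1) scale (x axis, STZ minus NOR) with its 95% interval from limma, grouped by complex. Filled points mark the 4 genes whose groups do not overlap, all lower in STZ, and only the intervals of *Ndufaf6* and *Ndufaf1* lie wholly on one side of 0.

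The number of negative genes depended most on 1 library of each group, STZ replicate 3 and NOR replicate 1. STZ replicate 3 was the lowest of all 6 libraries for 46 of the 83 genes (55.4%), against 24.7% of the protein-coding loci and 20.5% of all loci tested. Measured as the deviation of each gene from its own mean over the 6 libraries, the median was -0.15 on the log2 scale in STZ replicate 3 and between -0.017 and 0.075 in the other 5. The same library was the lowest for 18 of 33 genes of complex I, 5 of 9 of complex III, 7 of 12 of complex IV and 8 of 14 of complex V. Without it the median log2 fold change of the 83 genes became -0.012, 43 of 83 were negative, and the groups did not overlap in 12 higher and 6 lower genes. With 2 against 3 libraries 9.32% of all loci lay higher and 9.52% lower without overlap. NOR replicate 1 was the highest library for 25 of the 83 genes (30.1%, against 15.2% of the protein-coding loci), and without it the median was -0.036 and 46 of 83 were negative. STZ replicate 3 was also the library with the lowest lens and conjunctival marker sums given above, and the part of these markers in the result was not tested. STZ replicate 1 and STZ replicate 2 had medians of 0.029 and 0.025, inside the range of the NOR libraries.

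**Figure D2:**
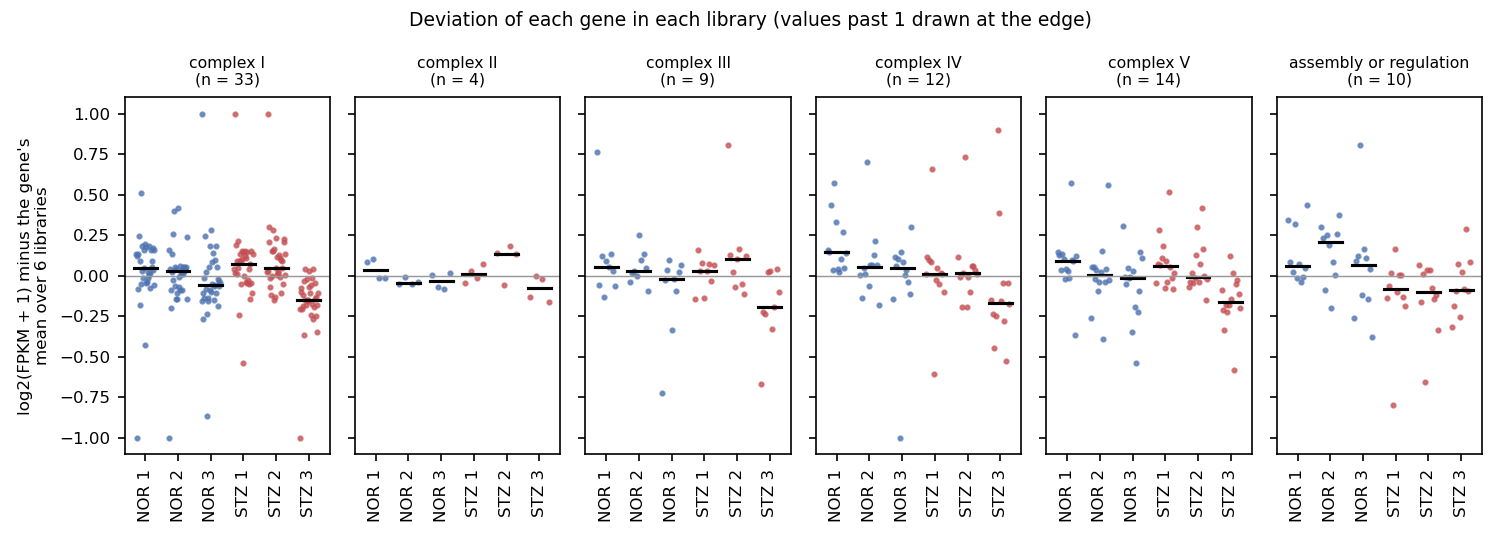
Deviation of each gene in each library from the gene's mean over the 6 libraries (y axis, log2(FPKM + 1); values past 1 drawn at the edge), by complex, with NOR in blue and STZ in red and a black line at the median. The line of STZ replicate 3 lies below those of the other libraries in complexes I to V, whereas the 3 STZ lines of complex IV and of the assembly group all lie below their 3 NOR lines.

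Of the complex I assembly factors, all 8 had a lower mean in STZ, with a median log2 fold change of -0.24, and the groups did not overlap for 3 of them (4.87% of all loci were lower without overlap). The other 5 overlapped, and none passed the adjusted test. The median of the 10 genes that are not subunits, *Atp5if1* and *Cox7a2l* included, deviated by -0.079, -0.098 and -0.087 in STZ replicates 1, 2 and 3 and by 0.061, 0.21 and 0.066 in NOR replicates 1, 2 and 3. Complex IV was the other group whose STZ medians all lay below its NOR medians, at 0.013, 0.015 and -0.16 in STZ and 0.14, 0.057 and 0.048 in NOR. Without STZ replicate 3, the median of the 8 factors was -0.20, 7 of 8 were negative and 3 were lower without overlap. In that comparison 9.52% of all loci were lower without overlap. Of the 7 keratocyte markers tested, 6 were also negative. *Lum*, a collagen-binding proteoglycan, was lower without overlap (4.87% of all loci), at 148 to 172 FPKM in NOR and 102 to 123 in STZ. The groups overlapped for the other keratocyte markers, and *Fbln1* was the positive one. Both monocyte and macrophage markers above the floor were negative. *Cd74*, the invariant chain of antigen presentation, was lower without overlap, at 3.97 to 8.03 FPKM in NOR and 2.68 to 3.35 in STZ. The groups overlapped for *Csf1r*. Among the monocyte and macrophage markers under the floor the directions were mixed. Mean FPKM of *C1qa* and *C1qb* were higher in STZ, at 0.258 and 0.415 in NOR and 0.398 and 0.478 in STZ. Those of *Ptprc* and *Itgam* were lower in STZ. The part of the keratocyte and macrophage markers in the lower assembly factors was not tested.

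*Ndufaf6*, needed early in the building of complex I, had the most negative log2 fold change of the set. Its row lies on chromosome 5 (chr5:24296946-24320810, minus strand, rn6) and held 1065, 980 and 1793 counts in NOR and 269, 241 and 714 in STZ libraries. Its FPKM were 2.32, 2.201 and 3.77 in NOR and 0.533, 0.662 and 1.91 in STZ. Every STZ value lay below every NOR value, and STZ replicate 3 was the nearest to the normal range. The mean was 2.76 ± 0.875 FPKM in NOR and 1.03 ± 0.758 in STZ (SD, n = 3 each). The log2 fold change was -0.92 with a standard error of 0.27 (limma, unadjusted p = 0.0097, adjusted p = 0.953). Under the other settings its log2 fold change ranged from -1.47 to -0.74. The row holds 2 transcripts, 1 of them assembled, and the share of the reads from each was not tested.

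*Ndufaf1*, which acts in the assembly of the membrane arm of complex I, was measured at 3.70, 4.21 and 3.796 FPKM in NOR and 3.21, 2.88 and 2.97 in STZ (chr3:111458572-111469518, minus strand, rn6). The groups were close but separate, and the mean was 3.90 ± 0.273 against 3.02 ± 0.172 FPKM (SD, n = 3 each). The log2 fold change was -0.27 with a standard error of 0.12 (limma, unadjusted p = 0.049, adjusted p = 0.953). *Ndufaf3*, a partner of *Ndufaf4* in the same process, read 3.97, 4.78 and 4.04 FPKM in NOR and 3.36, 3.34 and 3.58 in STZ (chr8:117351629-117353672, minus strand, rn6). Its 3 diabetic values lay within a narrow range below all normal values, and the log2 fold change was -0.23 with a standard error of 0.12 (limma, adjusted p = 0.953). The remaining factors overlapped between groups. *Ndufaf8* read 6.17, 5.87 and 3.16 FPKM in NOR and 3.62, 3.12 and 4.68 in STZ, so that 1 normal library lay among the diabetic ones. *Ndufaf2*, the member of lowest level at 0.747 FPKM on average, also had 1 low normal value of 0.455, beside 1.18 and 1.15, and STZ values of 0.559, 0.763 and 0.380. *Ndufaf4*, *Ndufaf5* and *Ndufaf7* had log2 fold changes of -0.036, -0.040 and -0.11.

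**Figure D3:**
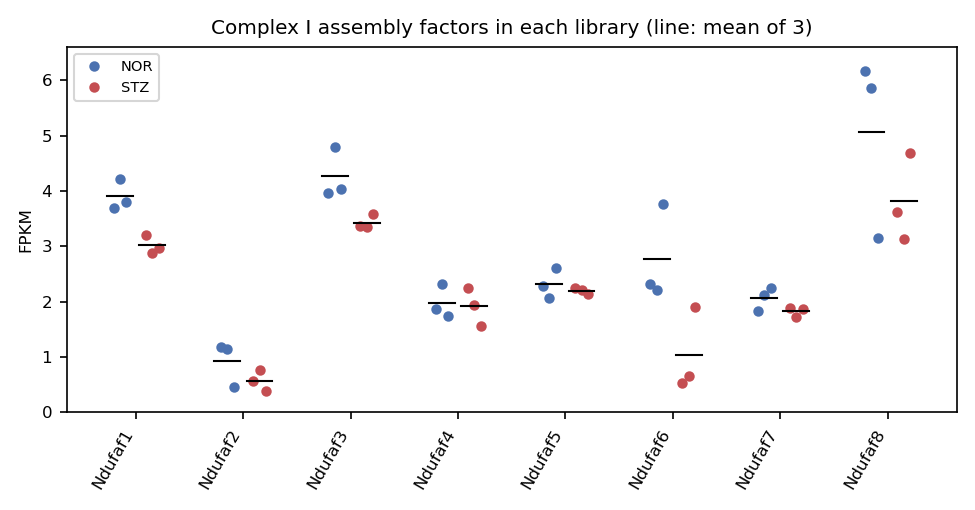
FPKM (y axis) of the 8 complex I assembly factors in each NOR (blue) and STZ (red) library, with a line at each mean of 3. All 8 STZ means lie below their NOR means, and the points do not overlap for *Ndufaf1*, *Ndufaf3* and *Ndufaf6*.

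The 2 other genes of the assembly group were abundant and did not share this pattern. *Atp5if1* read 101, 81.7 and 103 FPKM in NOR and 91.5, 95.4 and 88.8 in STZ, and *Cox7a2l* read 43.2, 43.5 and 37.96 in NOR and 44.6, 39.5 and 49.3 in STZ. Their log2 fold changes were -0.029 and 0.10, and both groups of values overlapped.

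Assembly factors whose symbols fall outside the name rule were examined as a separate list of 44 genes for complexes I to V. Of these 35 were tested, 16 were positive and 19 negative, with a median log2 fold change of -0.054, and 0 were called. One was higher without overlap (4.65% of all loci) and 3 were lower (4.87%). *Coa3*, a complex IV assembly factor, was the higher one, at 12.3, 10.5 and 11.7 FPKM in NOR and 16.1, 14.9 and 13.2 in STZ, with a log2 fold change of 0.35 (limma, unadjusted p = 0.012, adjusted p = 0.953). The 3 lower ones were *Cox18*, *Cox20*, both of which help insert or mature the mitochondrially encoded COX2 subunit, and *Uqcc3*, an assembly factor of complex III, with log2 fold changes of -0.19, -0.16 and -0.12.

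Complex I, the NADH dehydrogenase, is the largest of the complexes. Its 33 genes ranged from 2.54 FPKM (*Ndufab1*, the acyl carrier protein) to 73.9 FPKM (*Ndufb4*), with a median of 12.2. The median log2 fold change was -0.043, 21 of 33 genes were negative, and no gene's groups were separate in either direction. The 7 core subunits, which carry out electron transfer, had a median of -0.093 and the 26 accessory subunits -0.043. *Ndufs1*, the largest iron-sulfur subunit, had the smallest p among the lower genes, at 5.74, 5.91 and 6.64 FPKM in NOR and 5.87, 5.07 and 4.88 in STZ (log2 fold change -0.17 ± 0.11 SE). STZ replicate 1 lay within the normal range there. *Ndufa13*, an accessory subunit also known as GRIM-19, had the smallest p among the higher ones, at 4.42, 3.31 and 3.17 FPKM in NOR and 4.61, 4.55 and 3.73 in STZ (0.22 ± 0.15 SE). Without STZ replicate 3 the median of complex I was 0.0040, 16 of 33 were negative and 9 were higher without overlap (9.32% of all loci). Without NOR replicate 1 the median was 0.021 and 15 of 33 were negative, so the median turned positive without either of these libraries.

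*Ndufa1*, a small membrane subunit on chromosome X (chrX:124513269-124516705, rn6), could not be read as a level. Its row held 0, 0 and 301 counts in NOR and 531, 700 and 0 counts in STZ replicates 1, 2 and 3. Both groups thus held libraries at 0 and libraries at 15.1 to 46.2 FPKM. The log2 fold change of 2.07 had a standard error of 1.59. Whether the zeros arose in the tissue or in the assignment of reads was not tested.

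Complex II, the succinate dehydrogenase that also serves the citric acid cycle, had small differences in all 4 genes. *Sdha*, the flavoprotein, read 10.9, 10.02 and 9.62 FPKM in NOR and 10.4, 9.38 and 9.91 in STZ. *Sdhb*, the iron-sulfur subunit, read 25.4, 24.2 and 23.4 in NOR and 26.2, 28.5 and 23.9 in STZ. The membrane anchors stood at 9.66, 8.70 and 9.12 FPKM in NOR and 8.74, 9.76 and 8.08 in STZ for *Sdhc*, and at 32.9, 32.1 and 33.1 in NOR and 35.6, 36.6 and 27.7 in STZ for *Sdhd*. Values of the groups overlapped in all 4 genes. The log2 fold changes were -0.019, 0.098, -0.025 and 0.026 for *Sdha*, *Sdhb*, *Sdhc* and *Sdhd*, and their 95% intervals stayed within 1.5-fold in either direction. The 12 tested citric acid cycle genes had a median of -0.076, with 4 positive, 8 negative and 0 called.

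Complex III, the cytochrome bc1 complex, had 9 genes with levels from 4.27 FPKM (*Cyc1*, cytochrome c1) to 105 FPKM (*Uqcrh*, the hinge protein). Its median log2 fold change was -0.0052, with 6 of 9 negative, and it ranged from -0.12 without NOR replicate 3 to 0.017 without STZ replicate 3. *Cyc1* read 4.45, 4.62 and 4.27 FPKM in NOR and 4.31, 4.74 and 3.24 in STZ, and *Uqcrh* read 97.3, 105 and 112 in NOR and 115, 99.6 and 98.99 in STZ. Both overlapped, and for *Cyc1* the low value was that of STZ replicate 3. *Uqcrb* had the smallest p among the lower genes (-0.12 ± 0.11 SE) and *Uqcrq* among the higher ones (0.058 ± 0.11 SE). The *Uqcrb* row spans 475 bases, on another chromosome than RefSeq gives, and whether it is the gene or a copy was not tested. *Uqcr10*, singled out after its values were seen, varied more within than between the groups, with 19.4, 10.5 and 6.17 FPKM in NOR and 9.74, 19.1 and 6.38 in STZ.

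*Cycs*, the mobile carrier between complexes III and IV that also acts in apoptosis, read 14.8, 15.9 and 16.96 FPKM in NOR and 18.3, 14.5 and 10.8 in STZ. The diabetic values spanned the normal ones on both sides. Its log2 fold change was -0.14 with a standard error of 0.17, and it was 0.044 without STZ replicate 3 and -0.29 without STZ replicate 1. The study itself listed *Cycs* among the genes higher in diabetic epithelium by its own adjusted test, the opposite sign of the value with all libraries here. The source of that difference was not tested. The study's gene set analysis gave 2 wider sets, named mitochondrial matrix and mitochondrial protein-containing complex, as suppressed in the diabetic group. Those sets were not tested here.

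The median of complex IV was -0.11, the most negative of the 5 complexes with all libraries, and 11 of its 12 genes were negative. Without NOR replicate 3 it was -0.084, and that of complex III, -0.12, was the lower. All 10 ubiquitous subunits were lower in STZ on average, but only *Cox6c* had separate groups (4.87% of all loci were lower without overlap), at 88.4, 85.9 and 84.3 FPKM in NOR and 83.8, 81.5 and 68.8 in STZ. The gap between the lowest normal and the highest diabetic value was narrow, and the log2 fold change was -0.13 with a standard error of 0.096 (limma, adjusted p = 0.953). Under median scaling, edgeR with TMM or RLE factors and DESeq2 its groups overlapped. *Ndufa4*, once counted with complex I and now placed in complex IV, had the most negative value of the complex, at 12.8, 9.52 and 9.65 FPKM in NOR and 9.94, 7.68 and 6.43 in STZ. STZ replicate 1 reached into the normal range, and the log2 fold change was -0.36 with a standard error of 0.17 (limma, adjusted p = 0.953). *Cox5b* read 44.6, 42.6 and 35.1 FPKM in NOR and 37.8, 38.5 and 24.1 in STZ. Its log2 fold change of -0.30 became -0.11 without STZ replicate 3. Over the 10 subunits the same step moved the median from -0.11 to -0.067 and left 6 of 10 negative.

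Several complex IV subunits have isoforms that differ between tissues, and for subunits IV, VIa, VIb, VIIb and VIII the corneal epithelium expressed the ubiquitous form far above the others. *Cox4i1* read 74.4 to 107 FPKM over all libraries, while *Cox4i2*, the isoform of lung and low oxygen, read 0.203 to 0.677. *Cox6a1* read 51.3 to 71.3 and *Cox6a2*, the heart and muscle form, 0 to 0.897. *Cox6b1* stood at 28.2 to 38.6 and *Cox6b2*, the testis form, at 0 to 1.13. *Cox8a* stood at 59.4 to 72.7 and *Cox8b* at 0 to 0.696, and *Cox7b* at 51.5 to 75.8 while *Cox7b2* and *Cox8c* are listed at 0 counts in all libraries. The minor isoforms fell below the floor of 0.5 FPKM on average, as did *Cox6c-ps1* at 0 counts, which makes 7 symbols in all. The nearest symbol under the floor was *Cox4i2* at 0.400 and the nearest above it *Ndufaf2* at 0.747. In these 5 families the ubiquitous form was the higher in every NOR and STZ library. The ubiquitous forms had log2 fold changes of -0.083 (*Cox4i1*), -0.017 (*Cox6a1*), -0.099 (*Cox6b1*), -0.18 (*Cox7b*) and -0.00043 (*Cox8a*), none of them called. *Ndufa4l2*, a low-oxygen relative of *Ndufa4*, read 10.7, 7.84 and 9.32 FPKM in NOR and 5.02, 6.91 and 10.95 in STZ. It was thus close to *Ndufa4* in level, below it in 5 libraries and above it in STZ replicate 3.

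*Cox7a1*, known as the heart and muscle isoform of subunit VIIa, also departed from the order of those 5 families. Its row read 102, 110 and 4.79 FPKM in NOR and 111, 108 and 118 in STZ, and 1627 counts in NOR replicate 3 stood against 27798 to 39837 in the other 5 libraries. The log2 fold change of 1.53 with a standard error of 1.03 was 0.13 without that library. The row spans 24395 bases (chr1:91070414-91094808, rn6) and holds 5 assembled transcripts beside the annotated one. Striated muscle markers were low, at 0.852 to 2.14 FPKM in sum for the 6 found, of which only *Mylpf* reached the floor. Counts over all libraries were 8 for *Acta1*, 46 for *Ckm*, 56 for *Actn3*, 94 for *Tnnc2*, 560 for *Mylpf* and 1332 for *Myh4*. How much of the row belongs to *Cox7a1* itself was not tested. *Cox7a2l2*, the name the files give to a row on chromosome 8 where RefSeq places *Cox7a2*, read 34.6, 34.9 and 32.5 FPKM in NOR and 31.5, 33.5 and 24.8 in STZ (-0.18 ± 0.11 SE).

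**Figure D4:**
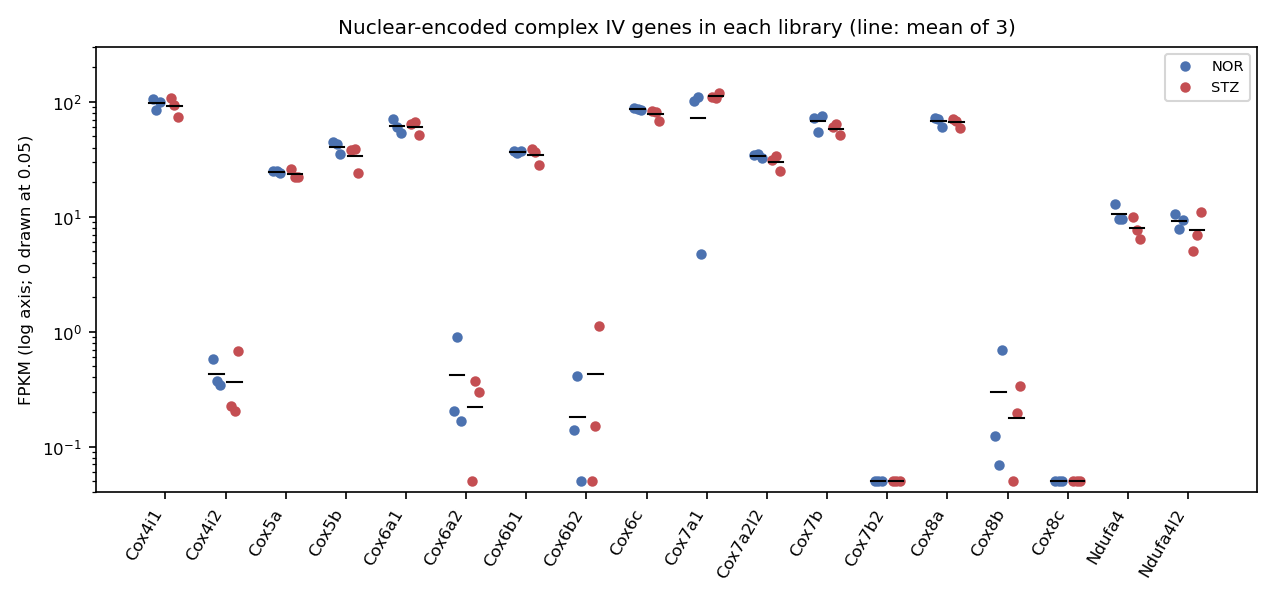
FPKM (log y axis; 0 drawn at 0.05) of the nuclear-encoded complex IV genes and their minor isoforms in each NOR (blue) and STZ (red) library, with a line at each mean of 3. *Cox4i1*, *Cox6a1*, *Cox6b1* and *Cox8a* lie far above their minor partners in every library, and *Cox7a1* has a single low point at 4.79 in NOR replicate 3.

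Complex V, the ATP synthase, held the most abundant gene of the set, *Atp5f1b*, the catalytic beta subunit, at 176, 171 and 171 FPKM in NOR and 191, 174 and 149 in STZ. Its values overlapped, and the log2 fold change was -0.059 ± 0.11 (SE). The 14 genes had a median of -0.044, with 9 negative and no separate groups. The median was -0.13 without STZ replicate 1, 0.0061 without STZ replicate 3, with 6 of 14 negative, -0.010 without NOR replicate 2 and -0.0058 with DESeq2. *Atp5pd*, in the peripheral stalk, had the smallest p among the lower genes (-0.13 ± 0.10 SE), and *Atp5f1e*, the epsilon subunit, among the higher ones, at 31.2, 29.4 and 22.9 FPKM in NOR and 29.3, 37.6 and 30.6 in STZ (0.23 ± 0.14 SE). The c subunit, which forms the rotating ring, is encoded by 3 genes that give the same mature protein. *Atp5mc1* read 16.1, 15.2 and 13.9 FPKM in NOR and 14.8, 14.5 and 14.1 in STZ, and *Atp5mc3* read 13.2, 12.4 and 13.4 in NOR and 15.4, 14.3 and 11.4 in STZ. *Atp5mc2* varied most, at 19.2, 9.23 and 8.25 in NOR and 18.5, 16.4 and 7.84 in STZ. Mean levels over all libraries were similar, at 14.8, 13.2 and 13.3 FPKM for *Atp5mc1*, *Atp5mc2* and *Atp5mc3*, and no member of the trio had separate groups. *Atp5f1c*, the gamma subunit, is the lowest of the complex at 2.77 FPKM, but its row has an implied length of 19851 bases and the symbol stands on 20 rows. A level per kilobase of so long a row cannot be compared with its partners. The rows of *Ndufs1*, *Ndufab1*, *Sdha*, *Ndufaf6* and *Ndufaf7* also had implied lengths over 5000 bases, and the same limit holds for their levels. It does not hold for comparisons of one row between libraries. These rows also hold assembled transcripts, however, and their share of the reads in each library was not tested.

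Known subunits that did not qualify were kept out and their values are given for completeness. *Atp5pb*, a stalk subunit whose row has several transcript types, read 15.4, 15.9 and 15.9 FPKM in NOR and 17.1, 14.4 and 12.6 in STZ. *Atp5mf*, *Cox7c*, *Ndufb2* and *Ndufb6* stand on rows joined with a neighbouring gene, with mean levels of 7.45, 5.42, 7.55 and 7.95 FPKM that cannot be divided between the genes. The one row under *Ndufs6* is typed as a processed pseudogene. Names also limit some members. RefSeq (GRCr8) places 4 of the 83 symbols on another chromosome than the files do, *Ndufa10l1*, *Uqcrb*, *Cox7a2l2* and *Atp5md*. The rows of *Uqcrb* and *Atp5md* span 475 and 308 bases, and may be copies of these genes, which was not tested. RefSeq also names at least one further copy or pseudogene after 44 of the 83 symbols, so reads of near-identical copies may have been divided.

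Promoter sequence is a property of these genes that the name rule did not use. In mammals, nuclear respiratory factor 1 (NRF1), the ETS-family factor GABP (also called NRF2) and YY1 are known regulators of many respiratory genes. Promoter sequences (250 bases before to 50 after the start, RefSeq, GRCr8) were found for 70 of the 83 genes whose RefSeq chromosome matched that of the files, and the first listed start of each gene was used. The letters GCGCATGCG (NRF1), CCGGAAG (the ETS core of GABP sites) and AAGATGGCG (YY1) were searched on both strands. NRF1 letters were in 9 of 70 promoters (12.9%), against 1.66% of all 27457 promoters and 2.03% of those of protein-coding genes. ETS letters were in 21 of 70 (30%), against 9.22% and 11.2%. YY1 letters were in 9 of 70 (12.9%), against 1.93% and 2.29%. At least one of the motifs was in 32 of 70 (45.7%), against 11.96% and 14.5%. A match is a description of these letters and not a bound site. Median GC content was 57.2% for the members, 52.3% for all promoters and 55.3% for those of protein-coding genes. The members had to pass the FPKM floor, while the promoters they are set against were not filtered by expression. The part of GC content and expression in the motif shares was not tested.

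A window of 30 bases (GRCr8) is printed for each of 8 genes, with the motif in capitals, on the strand of the gene, and with the distance of its first base from the start site, which is counted as 0. *Ndufaf1* and *Cox5b* are shown as genes with lower values in STZ, *Cox4i1*, *Sdhb* and *Uqcrh* as subunits of complexes IV, II and III, *Cycs* and *Atp5mc2* for the NRF1 letters and *Ndufa9* for those of YY1.
Ndufaf1, ETS, -24, chr3:127104026-127104055, minus strand: atggacctgcaCCGGAAGcgtggagaaccg
Cox5b, ETS, -14, chr9:46417812-46417841, plus strand: tctgtctgttcCCGGAAGtgcatctgcttg
Cox4i1, ETS on the opposite strand, 3, chr19:65630375-65630404, plus strand: accgtcttgctCTTCCGGtgcgggacccgc
Sdhb, ETS, -108, chr5:158547815-158547844, plus strand: tactcgggataCCGGAAGctgccttccact
Uqcrh, ETS on the opposite strand, -83, chr5:134790947-134790976, minus strand: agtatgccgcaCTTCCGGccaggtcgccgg
Cycs, NRF1 on the opposite strand, -158, chr4:80984906-80984935, minus strand: catgctagccCGCATGCGCgcgcaccttgc
Atp5mc2, NRF1, -56, chr7:135678255-135678284, minus strand: ggctctagtcGCGCATGCGcagagccttct
Ndufa9, YY1, 10, chr4:161374141-161374170, minus strand: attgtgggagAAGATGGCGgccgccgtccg
The printed letters of *Ndufaf1*, *Cox5b*, *Sdhb*, *Uqcrh*, *Cycs* and *Atp5mc2* stand before the start, and those of *Cox4i1* and *Ndufa9* after it. *Ndufaf1* holds a second ETS match at 18, after the start. The YY1 matches lay between -111 and 26, with a median of 4. Genes with at least one motif had a median log2 fold change of -0.052 (n = 32) and those with none -0.030 (n = 38).

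Regulators of mitochondrial gene expression had a median near 0. Of 20 listed genes 17 were tested, 8 were positive and 9 negative, the median was -0.0072 and 0 were called. *Tfam*, which packs and transcribes mitochondrial DNA, read 6.76, 8.28 and 7.65 FPKM in NOR and 7.08, 5.81 and 6.38 in STZ, with overlap (-0.19 ± 0.12 SE). Among 18 tested carriers, porins and import factors 6 were positive and 12 negative, with a median of -0.044. *Hspd1*, the mitochondrial chaperonin HSP60, was the one higher without overlap (4.65% of all loci), at 12.7, 11.2 and 10.7 FPKM in NOR and 13.5, 14.4 and 13.04 in STZ (0.25 ± 0.10 SE, limma adjusted p = 0.953). *Phb2*, a prohibitin of the inner membrane, was the one lower without overlap on the quantile-normalized scale (4.87%), while its FPKM touched, at 17.6, 17.7 and 18.2 in NOR and 17.6, 15.7 and 12.9 in STZ (-0.20 ± 0.12 SE).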

How the data were processed

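RNA of scraped corneal epithelium was sequenced in 3 normal (NOR) and 3 diabetic (STZ) libraries. According to the submitters' processing notes, reads were trimmed with cutadapt, checked with FastQC and aligned with Bowtie2 to rat rn6, with versions, assembler and counter not given in the sources used here. The authors deposited raw counts per locus. They also deposited FPKM, which the authors had scaled by locus length and library size, with a small placeholder (86380 values) wherever the count was 0, set to 0 here. Loci with joined names cannot be divided.

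The study took log2 values, normalized them and used limma. Here log2(FPKM + 1) was tested by limma 3.58.1 in R 4.3.3 over 42551 loci, and the use of FPKM, the pseudocount, quantile normalization, the floor of mean FPKM 0.5 and eBayes with trend were choices made here. Calls needed an adjusted p (Benjamini-Hochberg) under 0.05 and a fold over 1.2. Groups do not overlap where all values of one lie on one side of the other. Counts were also tested with edgeR 4.0.16 (quasi-likelihood) and DESeq2 1.42.0 as alternatives. Standard errors and 95% intervals are limma's. Implied locus length is the count divided by FPKM and library total. The fits were tested on simulated data.

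The members and the 13 gene lists were chosen with earlier results of these data known. Named genes were, per complex, those of smallest p in each direction and of highest and lowest level, genes without overlap, isoform families, the Sdh genes, *Cycs* and *Cyc1*, and up to 4 per list. Same-numbered NOR and STZ libraries correlated at -0.0092, 0.025 and 0.032 in their deviations over all loci, so numbers were not taken as pairs. Promoters and names came from RefSeq GRCr8, matched by symbol (82) or synonym (1); no coordinates were converted between builds. Totals per library bound precision, and counting limits cover counting error only. Alternatives were 21 settings of normalization, pseudocount, filter, loci, tool, variance model, replicate block, libraries and members. Figures used matplotlib.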

Additional observations from a re-analysis of the deposited data

How the results depend on the processing

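Under all 21 alternative settings 0 of the members passed, and between 0 and 4 were under an unadjusted p of 0.05. The number higher in STZ without overlap, 0 as reported, was 1 with median scaling, with protein-coding loci only, with edgeR under TMM or RLE factors and with DESeq2, and ranged from 0 to 12 as each library was left out, with 12 without STZ replicate 3. The number lower without overlap, 4 as reported, was 3, without *Cox6c*, with median scaling, edgeR under TMM or RLE factors and DESeq2, 1 at a mean FPKM of at least 5 (68 members) and 1 for structural subunits only (73 members), and ranged from 6 to 16 without 1 library, with 16 without NOR replicate 3 and 15 without STZ replicate 1. Fewer samples make separation more frequent, and the shares over all loci rose to between 8.03% and 14.1%. The median log2 fold change stayed negative, from -0.081 (edgeR without scaling factors) to -0.012 (without STZ replicate 3). That of the 10 assembly and regulation genes was 0.036 at a mean FPKM of at least 5, where the 8 complex I assembly factors are below the filter. Leaving out *Ndufa1* and *Cox7a1*, an alternative added after seeing the data, gave a median of -0.053. The replicate block gave 0 calls, 3 genes at an unadjusted p under 0.05 in place of 2, 4 lower without overlap and a median of -0.049, and the numbers did not pair the samples (correlations of -0.0092, 0.025 and 0.032). Among 36 named members, 706 values under alternatives had 34 of another sign, all from members whose difference was within its standard error.

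With 3 libraries a group, the median half-width of a 95% interval was 0.29 on the log2 scale, so differences under about that size could not be resolved. FPKM of *Ndufa1* rest on libraries at 0 counts, and minor isoforms rest on at most 56 counts in a library.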
